A study of Mus musculus with 2 samples.

Results

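The core β cell identity factors analyzed here are the products of 8 genes, Pdx1, Mafa, Nkx6-1, Nkx2-2, Neurod1, Pax6, Isl1 and Insm1, out of 22367 protein-coding genes of the annotation. They were taken as a fixed list of names, and the binding of Rfx6 was read from all peaks with a summit in one of these genes or within 50 kb of either end. Rfx6 binding was measured by ChIP-seq in Min6b1, an insulin-secreting mouse β cell line kept in 25 mM glucose. One library came from cells harvested 2 days after transfection with 24 µg of a plasmid (pCMV-Tag2A-3HA-Rfx6) that expresses Rfx6 with an HA tag, precipitated with the anti-HA antibody 12CA5. The control was the same precipitation from cells labelled only as Min6b1, but the growth text given for this sample also describes transfection with the 3HA-Rfx6 plasmid. The labels thus conflict on whether the control cells carried the plasmid, and with it on what the fold enrichments are measured against. The bound protein was therefore a tagged one made from a viral promoter in a cell line, and not the endogenous protein of islets. A peak list carries no expression values, so the β cell label of the line could not be checked against its markers.

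These 8 proteins are transcription factors that together switch on and hold the β cell program. Pdx1, Mafa and Neurod1 act on the insulin promoter, Nkx6-1 keeps β cells apart from other islet cells, Nkx2-2, Pax6 and Isl1 act in several islet cell types, and Insm1 is a zinc finger protein of endocrine differentiation. Rfx6 belongs to the winged-helix Rfx family, which recognizes the X-box, a pair of inverted arms such as GTTGCC and GGCAAC with a short gap between them. The question was where tagged Rfx6 sat relative to the genes of its fellow islet regulators.

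The 3HA-Rfx6 library kept 33949757 reads and the control 3567375 after duplicates were removed, and MACS called 23308 peaks. These were 68.7% of 49443917 reads and 21.1% of 16911298 reads, so the fold enrichments were set against a much shallower control. With 1 library per condition no value has a replicate error, and no test of a difference was possible. In all, 23 summits fell to the 8 genes, and no summit was shared between 2 of them. Their peaks held 36 to 356 reads with a median of 93, against a median of 73 reads over all peaks, and had fold enrichments of 4.04 to 32.6 with a median of 12.5, against 8.54 over all peaks. Their FDR ranged from 1.81%, at a peak of 36 reads, to 7.53%, at the peak of 356 reads. A low FDR thus did not mark the stronger of these peaks.

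At least 1 summit was found for 7 of the 8 genes, and 67.8% of all protein-coding genes had one by the same rule. Isl1 was the gene without a summit. More than 1 summit was found for Mafa, Pax6, Pdx1 and Neurod1, or 4 of 8 (49.7% of all genes had 2 or more). A summit within 10 kb of a protein-coding start was found for 6 genes (37.6% of all genes), with Nkx6-1 and Isl1 lacking one. A summit in the gene itself was found for Pdx1, Neurod1, Pax6 and Insm1, or 4 of 8 (31.3% of all genes). Of the 23 summits, 6 lay in the gene, 4 upstream and 13 downstream. The 13 include a cluster of 5 from the Mafa window, and the split was not computed for all genes. The factor gene had the nearest protein-coding start for 13 summits, whereas another gene was nearer for the other 10, namely Rhpn1 for 5, Cdx2 and Cerkl for 2 each and Gsx1 for 1. Of the 8 genes, 7 had the nearest start for at least 1 of their summits, as did 42.0% of all genes, and both counts include genes without a summit.

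**Figure D1:**
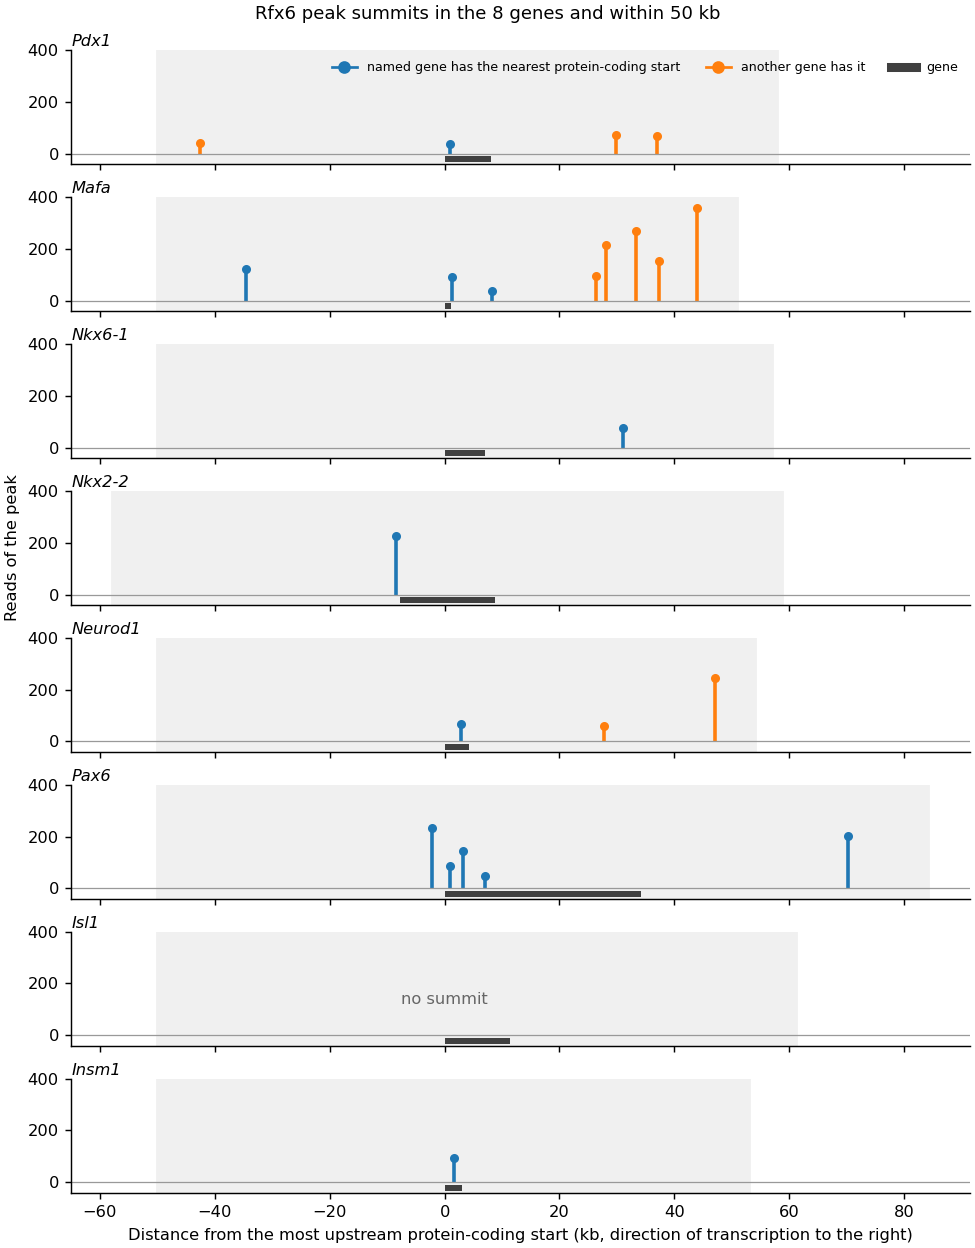
Position of each summit (x axis, kb from the most upstream protein-coding start, transcription to the right) and reads of its peak (y axis) for the 8 genes, with the gene as a dark bar and the 50 kb window in gray. Of the 5 Pax6 summits 4 lie at its upstream end, 5 of the 8 Mafa summits lie 26.4 to 43.9 kb downstream of its start and are nearer to Rhpn1 (orange), and Isl1 has no summit.

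Pdx1 (ENSMUSG00000029644.6), a homeodomain activator of the insulin gene and of pancreas formation, lies on the plus strand at chr5:148081535-148089584 (NCBIM37/mm9). It had 4 summits, and none of their peaks exceeded the list's median of 73 reads. The peak in its intron, 0.998 kb after the start and also within 2210019I11Rik, a noncoding gene on the opposite strand, held 36 reads (95% Poisson interval 25.2 to 49.8) with a fold enrichment of 4.24, and 97.7% of all peaks held at least as many reads. The peak 42.6 kb upstream held 42 reads, and the peaks 21.8 and 28.9 kb beyond the end of the gene held 73 and 70 reads. The last of these lay in a coding exon of Cdx2, an intestinal homeobox gene, 355 bp from its start. The highest Pdx1 peak was thus an ordinary peak of the list, since 50.0% of all peaks held 73 or more reads, and its summit was nearer to Cdx2 (7.45 kb) than to Pdx1 (29.9 kb). The 200 bp around it are shown because this peak has an X-box arm (in capitals) 1 bp from the summit:

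Pdx1, chr5:148111300-148111499, plus strand: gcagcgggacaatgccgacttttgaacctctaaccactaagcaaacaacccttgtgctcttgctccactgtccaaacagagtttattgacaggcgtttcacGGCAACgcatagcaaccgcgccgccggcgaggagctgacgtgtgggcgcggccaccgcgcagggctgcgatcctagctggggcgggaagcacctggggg

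Nkx6-1 (ENSMUSG00000035187.8), the homeodomain factor that represses other islet fates, lies on the minus strand at chr5:102087158-102094245. Its only summit was 31.1 kb from the start, or 24.0 kb past the end. The peak held 75 reads (59.0 to 94.0), close to the median of the list, but its fold enrichment of 4.67 was low, with 95.4% of all peaks at least as high. Its window, shown in full, consists largely of a repeated unit, in which a single run of 12 bases occurs 6 times, and 1.97% of all summit windows have a 12-base run that often. It holds no relaxed X-box and no X-box arm. Whether reads of several copies were placed here was not tested.

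Nkx6-1, chr5:102063022-102063221, plus strand: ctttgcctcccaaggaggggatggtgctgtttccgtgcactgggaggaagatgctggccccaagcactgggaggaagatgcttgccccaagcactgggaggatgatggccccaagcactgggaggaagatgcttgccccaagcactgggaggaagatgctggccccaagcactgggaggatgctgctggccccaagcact

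A stronger peak near Nkx6-1 lay just outside the window, 69.1 kb past its end, and held 183 reads at a fold enrichment of 16.6. No other protein-coding start was nearer to it, at 76.2 kb. The summits just inside the 50 kb limit were those 42.9 kb from Mafa (356 reads) and from Neurod1 (244 reads) and 42.6 kb from Pdx1 (42 reads). Those just outside it were 53.4 kb upstream of Nkx2-2 (123 reads), 54.7 kb upstream of Mafa (62 reads) and 57.9 kb downstream of Pdx1 (58 reads).

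Mafa (ENSMUSG00000047591.4), a basic leucine zipper activator of insulin in mature β cells, lies on the minus strand at chr15:75577273-75578352. With 8 summits it had the most of the 8 genes, and 1343 of the 22367 protein-coding genes had at least as many. Of these, 3 had Mafa as the nearest start and 5 lay farther downstream. The 3 were a peak 178 bp beyond the annotated end with 91 reads and a fold enrichment of 6.12, a peak 7.11 kb beyond it with 36 reads, and a peak 34.6 kb upstream, in an intron of Zc3h3, with 120 reads. The annotated Mafa transcript is a single exon of 1080 bp with no 3′ UTR beyond the stop codon. Whether the summit 178 bp past it lies in transcribed Mafa sequence was not tested, and Mafa is not counted here among the genes with a summit inside.

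The 5 summits downstream lay within 17.5 kb of each other, and their peaks held 93, 214, 268, 151 and 356 reads in the direction away from Mafa. Together they held 1082 reads, against 247 in the 3 peaks for which Mafa had the nearest start. Rhpn1 had the nearest start for each of the 5, at 292 bp for the highest and 17.1 kb for the one closest to Mafa. The highest peak, with 356 reads (320 to 395), a fold enrichment of 22.8 and an FDR of 7.53%, was the highest of all 23, and 1.44% of the list held as many reads. It was also the only 1 of the 23 with a strict X-box, 14 bases long at chr15:75534413-75534426 and covering the summit. The window shows this X-box in capitals.

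Mafa, chr15:75534318-75534517, plus strand: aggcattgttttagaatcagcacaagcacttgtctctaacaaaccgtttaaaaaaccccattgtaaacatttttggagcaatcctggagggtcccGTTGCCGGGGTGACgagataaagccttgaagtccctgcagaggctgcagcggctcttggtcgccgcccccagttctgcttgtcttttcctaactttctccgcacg

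Neurod1 (ENSMUSG00000034701.8), a basic helix-loop-helix activator of insulin transcription, lies on the minus strand at chr2:79292678-79296908, inside the annotated bounds of Cerkl on the same strand. It had 3 summits, none upstream. The peak in the gene, in the 3′ UTR 2.63 kb from the nearer of its starts, held 69 reads (53.7 to 87.3) with a fold enrichment of 4.47. The peak 23.6 kb beyond the end of the gene held 60 reads and lay 30 bp from a start of Cerkl, a gene of retinal photoreceptors. The highest peak, 42.9 kb beyond the end of Neurod1 in an intron of Cerkl and 19.2 kb from the nearest Cerkl start, held 244 reads (214 to 277) with a fold enrichment of 27.5, and 4.81% of all peaks held as many. The strong peak of this locus was thus far from Neurod1. The peak in the gene was ordinary by reads, since 53.6% of all peaks held at least as many. By fold enrichment it was low, with 97.1% of all peaks at least as high. The 200 bp of the strong peak have no relaxed X-box and no GTTGCC or GTTACC, but they have GTTGCTA on the minus strand 3 bp from the summit and again on the plus strand 22 bp from it:

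Neurod1, chr2:79249724-79249923, plus strand: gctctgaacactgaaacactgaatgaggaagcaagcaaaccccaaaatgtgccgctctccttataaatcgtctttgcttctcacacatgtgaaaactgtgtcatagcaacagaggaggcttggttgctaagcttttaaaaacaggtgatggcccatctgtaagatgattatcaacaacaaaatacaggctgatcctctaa

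Nkx2-2 (ENSMUSG00000027434.9), a homeodomain factor needed for β cell formation, lies on the minus strand at chr2:147003282-147019979. It had 1 summit, and this belonged to a strong peak with 226 reads (197 to 257) and a fold enrichment of 25.9. In the whole list, 5.84% of peaks held as many reads. The summit was 611 bp upstream of the 5′ boundary of the annotated gene, which is set by noncoding transcripts (Nkx2-2-003 and Nkx2-2-004), and 8.45 kb upstream of the nearest protein-coding start. It lay within Nkx2-2as, a noncoding gene on the opposite strand. The peak was thus near the noncoding starts and not at the protein-coding ones. Its window, with 68.5% G and C, has no relaxed X-box and no X-box arm:

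Nkx2-2, chr2:147020490-147020689, plus strand: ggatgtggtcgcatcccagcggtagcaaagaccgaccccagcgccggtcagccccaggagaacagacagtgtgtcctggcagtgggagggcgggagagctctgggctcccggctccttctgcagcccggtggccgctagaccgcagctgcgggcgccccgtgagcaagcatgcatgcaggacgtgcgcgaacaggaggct

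Pax6 (ENSMUSG00000027168.12), a paired-box and homeodomain factor required for islet hormone expression, lies on the plus strand at chr2:105509053-105543317 and has 24 protein-coding transcripts with 21 different starts. It had 5 summits, and for each of them no other gene had a nearer protein-coding start. From upstream to downstream, the peaks held 231, 87, 143, 48 and 201 reads, with fold enrichments of 25.8, 12.5, 25.0, 6.59 and 32.6. The first 4 lay around the upstream starts. The first summit was 2.25 kb upstream of the gene, the next was in an intron 0.873 kb after the start of Pax6-202, the third was in the 5′ UTR of a transcript 160 bp after the start of Pax6-004, and the fourth was 2 bp before the start of Pax6-030. Pax6 was the only factor gene with several summits within 1 kb of a protein-coding start, 3 in all. With its 21 different starts, against 1 or 2 for each other factor gene, it also had more sequence that close to one. The share of all genes with several such summits was not computed. Pdx1 was the other of the 2 genes with at least 1 summit within 1 kb of a start (22.6% of all genes). The weak peak at Pax6-030 sat on a short repeat, with a 12-base run present 16 times in its window, as often as in 0.219% of all windows. The peak upstream of the gene is shown as the one with the most reads, although it has no X-box sequence by any of the 3 searches:

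Pax6, chr2:105506700-105506899, plus strand: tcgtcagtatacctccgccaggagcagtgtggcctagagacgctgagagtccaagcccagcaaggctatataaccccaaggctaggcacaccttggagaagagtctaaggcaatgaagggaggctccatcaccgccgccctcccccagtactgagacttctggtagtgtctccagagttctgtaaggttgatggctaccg

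The fifth Pax6 peak, 35.9 kb beyond the end of the gene and in an intron of Elp4, a gene of the Elongator complex, had the highest fold enrichment of the 23, and 2.35% of all peaks were as high. Its summit was covered by a relaxed X-box at chr2:105579226-105579238, and a GTTGCC ended 14 bp to the left of the summit. Its distance to the nearest Pax6 start, that of Pax6-031, was 49.6 kb.

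Isl1 (ENSMUSG00000042258.5), the LIM homeodomain factor of islet and motor neuron development, lies on the minus strand at chr13:117088478-117099896. It had no summit in the gene or within 50 kb, as was the case for 32.2% of protein-coding genes. The nearest summit downstream was 184 kb away with 37 reads, and the nearest upstream was 713 kb away with 90 reads and 1.07 kb from a start of Parp8. Only regions past a p-value of 1e-05 were deposited, none with fewer than 24 reads, so weaker binding near Isl1 was not detectable at this depth.

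Insm1 (ENSMUSG00000068154.4), a zinc finger gene with a single exon, lies on the plus strand at chr2:146047657-146050752. Its only summit was in the coding exon, 1.66 kb after the start. The peak held 95 reads (76.9 to 116) with a fold enrichment of 14.6, and 34.5% of all peaks held as many reads. The next summits were 188 kb upstream and 136 kb downstream. The peak on the exon thus stood alone. Its window is shown for its base composition, with 77.5% G and C, the highest of the 23 windows:

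Insm1, chr2:146049212-146049411, plus strand: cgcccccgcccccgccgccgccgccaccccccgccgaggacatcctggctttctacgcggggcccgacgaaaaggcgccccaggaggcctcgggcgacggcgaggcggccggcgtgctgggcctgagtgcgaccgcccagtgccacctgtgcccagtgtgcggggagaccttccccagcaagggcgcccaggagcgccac

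Ordered by their highest peak, the genes were Mafa (356 reads), Neurod1 (244), Pax6 (231), Nkx2-2 (226), Insm1 (95), Nkx6-1 (75), Pdx1 (73) and Isl1 (no summit). The counting interval of Mafa lay above that of Neurod1. Those of Neurod1, Pax6 and Nkx2-2 overlapped, as did those of Insm1, Nkx6-1 and Pdx1, and a gap separated Nkx2-2 from Insm1. The intervals cover counting error only, and the peaks differ in length. Per kb of peak, the order at the top changed, with 147 reads per kb for Pax6, 136 for Mafa, 134 for Nkx2-2 and 107 for Neurod1. With only the summits for which the factor gene had the nearest start, Pax6 (231 reads) and Nkx2-2 (226) led, followed by Mafa (120), Insm1 (95), Nkx6-1 (75), Neurod1 (69) and Pdx1 (36). The places of Mafa and Neurod1 thus rested on peaks nearer to Rhpn1 and Cerkl.

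**Figure D2:**
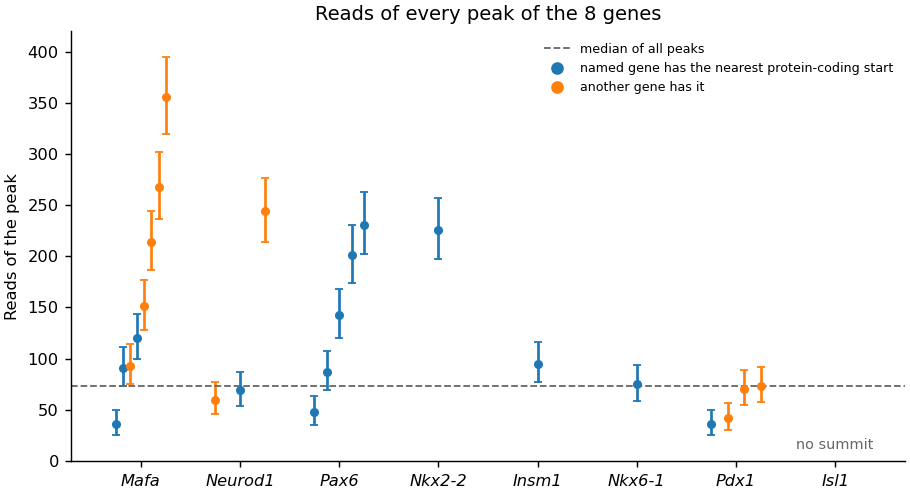
Reads of every peak (y axis) of the 8 genes (x axis, ordered by the highest peak), with 95% exact Poisson intervals for counting error as bars and the median of all peaks, 73 reads, as a dashed line. The highest peaks of Mafa and Neurod1 are nearer to another gene (orange), whereas those of Pax6 and Nkx2-2 are nearest to the named gene (blue).

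Peaks among the top 10% of the list by reads, those with at least 182 reads, were found for Mafa (3 peaks), Pax6 (2), Neurod1 and Nkx2-2 (1 each). These are 4 of 8 genes, and 18.6% of all protein-coding genes had such a peak within 50 kb. Of the 23 peaks, 7 (30.4%) were in this top class, as were 10.1% of all peaks. The 3 peaks of this class counted for Mafa were nearer to Rhpn1 and lay in 1 cluster, and the 1 counted for Neurod1 was nearer to Cerkl. By the nearest-start rule only Pax6 and Nkx2-2 kept a peak of the top class. The share of all protein-coding genes that keep one by this rule was not computed, and the 18.6% does not apply to it. The count of genes is small and the list was named with results of these data known, so this is a description of these loci.

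The number of summits was read against the length of the windows, since a longer gene has more room. The windows of the 8 genes were 101 to 134 kb long, with a median of 108 kb against 115 kb for all protein-coding genes. Per 100 kb of window, Mafa had 7.91 summits, Pax6 3.72, Pdx1 3.70, Neurod1 2.88, Insm1 0.970, Nkx6-1 0.934, Nkx2-2 0.857 and Isl1 0. The median over all protein-coding genes was 0.976. Mafa, Pax6, Pdx1 and Neurod1 were above this median and the other 4 below it, and 2.08% of genes reached the density at Mafa. Pdx1 combined a density above the median with peaks of at most 73 reads, and Nkx2-2 had 1 peak with 226.

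**Figure D3:**
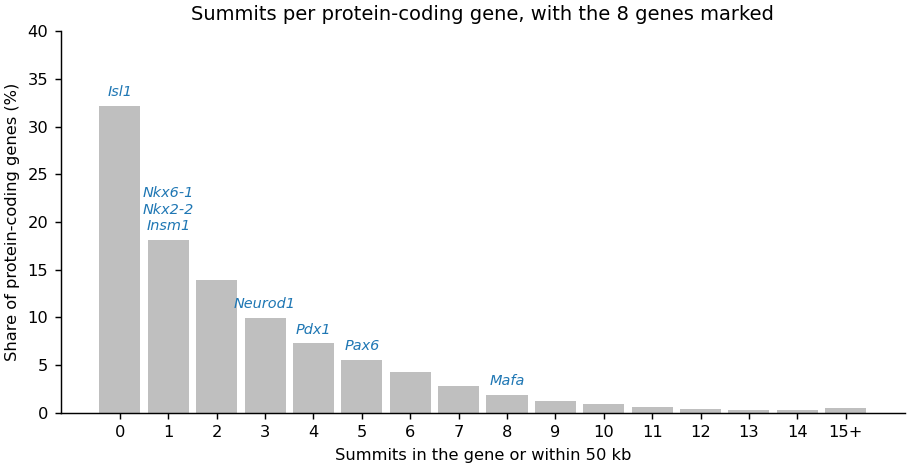
Share of the 22367 protein-coding genes (y axis, %) with each number of summits in the gene or within 50 kb (x axis, 15 or more pooled), with the names of the 8 genes above their bars. Isl1 is among the 32.2% of genes without a summit, and Mafa with 8 is among the 1343 genes with at least as many.

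The same counts were made for related groups of genes. Over all protein-coding genes, 67.8% had a summit within 50 kb, 37.6% had one within 10 kb of a start and 18.6% had a peak of the top class. Of 11 family relatives of the factors, 6 had a summit within 50 kb, 3 had one within 10 kb of a start and 1 had a peak of the top class. The highest peaks were near Nkx6-2 (185 reads) and Isl2 (179 reads, nearer to Scaper), a relative of Isl1, and Nkx2-1, Nkx2-4, Neurod4, Neurod6 and Insm2 had no summit.

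Of 13 other islet transcription factors, 10 had a summit (67.8% of all protein-coding genes). Among the 13, 7 had one within 10 kb of a start (37.6%) and 4 had a peak of the top class (18.6%). Myt1, a zinc finger factor of endocrine progenitors, had the highest peak, with 354 reads, a fold enrichment of 40.3 and a distance of 4.14 kb to its start. Neurog3, the inducer of the endocrine lineage, had 5 summits, the highest with 217 reads and nearer to another gene. Gata6 and Glis3 were among those without a summit. The Myt1 peak held about as many reads as the highest near Mafa, but lay nearer to the start of the named gene (4.14 against 43.9 kb).

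Of 10 β cell genes that the factors regulate, 8 had a summit (67.8% of all protein-coding genes) and 5 had one within 10 kb of a start (37.6%). None of the 10 had a peak of the top class (18.6%), which for so few genes is not read as a contrast. The highest were at Pcsk2, a prohormone convertase, with 163 reads, and at Glp1r, the incretin receptor, with 130 reads and 0.046 kb from a start. The Pcsk2 summit lay in the gene, but the nearest protein-coding start was that of Bfsp1, 66.1 kb away. Ins1 and Slc30a8 had no summit. The median of the highest peak, over genes with a summit, was 226 reads for the 8 factor genes, 95.5 for the relatives, 134 for the other islet factors, 112 for the β cell genes and 116 for all protein-coding genes. This order rested on summits nearer to another gene: with only those for which the listed gene had the nearest start, a rule added after seeing the data, the medians were 95 reads for 7 factor genes, 71 for 4 relatives, 108 for 7 other islet factors, 98 for 6 β cell genes and 92 for all protein-coding genes. The lists are short and were not tested against each other.

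**Figure D4:**
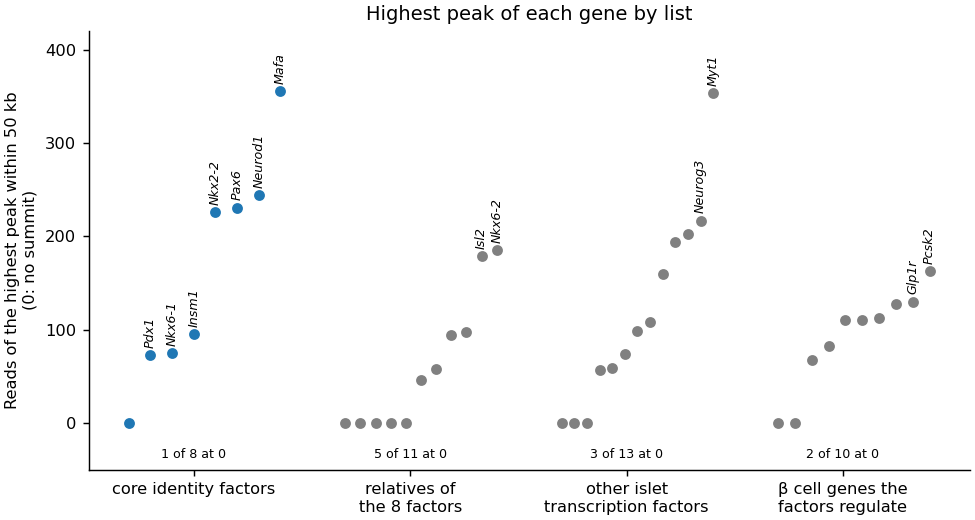
Reads of the highest peak within 50 kb (y axis, 0 where there was no summit) for each gene of the 8 core factors, their 11 relatives, 13 other islet transcription factors and 10 β cell genes (x axis), with all factors with a summit and the 2 highest genes of the other lists named. Mafa (356 reads) and Myt1 (354) are the highest points.

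Windows of 200 bp centered on the summits were searched for the X-box with a strict pattern, close to the known consensus in both arms with a gap of 0 to 3 bases, and with a relaxed pattern with more freedom in each arm and a gap of 1 to 3 bases. A single arm, GTTGCC or GTTACC on either strand, was searched as well, and it can be part of an X-box. A strict X-box was present at 1 of the 23 summits (4.35%, 95% Wilson interval 0.772 to 21.0%) and at 6.42% of all summits. In windows 1 kb away it was present for 0 of the 23 and for 0.253% of all. A relaxed X-box was present at 11 (47.8%, 29.2 to 67.0%), against 45.9% of all summits. In windows 1 kb away it was present for 4 of the 23 and for 22.8% of all. An arm was present at 8 (34.8%, 18.8 to 55.1%), against 35.7% of all summits. In the windows 1 kb away it was present for 3 of the 23 and for 10.7% of all. GTTGCNA, a search chosen after seeing the data, was present at 5 summits (21.7%, 9.66 to 41.9%) and at 25.5% of all. In the windows 1 kb away it was present for 4 of the 23 (17.4%) and for 5.14% of all. Counts of 5 and 4 in 23 windows are too small to compare places at and beside the summits of the factor genes. The factor genes thus had X-box sequences about as often as the peaks of the whole list.

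Beside the strict X-box near Mafa, relaxed X-boxes covered the summit of 4 peaks. They are shown with 8 bases on each side, on the plus strand of the chromosome and with the matched bases in capitals, to compare their arms with the strict one, and were chosen for display after the matches were seen:
Mafa, 356 reads, strict, chr15:75534413-75534426: agggtcccGTTGCCGGGGTGACgagataaa
Mafa, 151 reads, chr15:75540976-75540989: tttcttcaGTCCCTCCAGGAGCcccgggct
Mafa, 93 reads, chr15:75551942-75551955: gcatcacgGTCTCTACAGGAGTgtctgtat
Neurod1, 69 reads, in the 3′ UTR, chr2:79294090-79294102: gtggattcGTTTCCCGGGAATagtgaaac
Pax6, 201 reads, downstream in Elp4, chr2:105579226-105579238: tgttgcccATTGCCCAGCAACccatggtt
A match to such loose letters does not show a binding site. Of the 7 peaks of the top class, the 356-read peak near Mafa and the Elp4 peak of Pax6 had a relaxed X-box over the summit, and the 268-read peak near Mafa had one 33 bp away. The other 4, which include the highest peaks of Neurod1, Pax6 and Nkx2-2, had none in their windows.

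**Figure D5:**
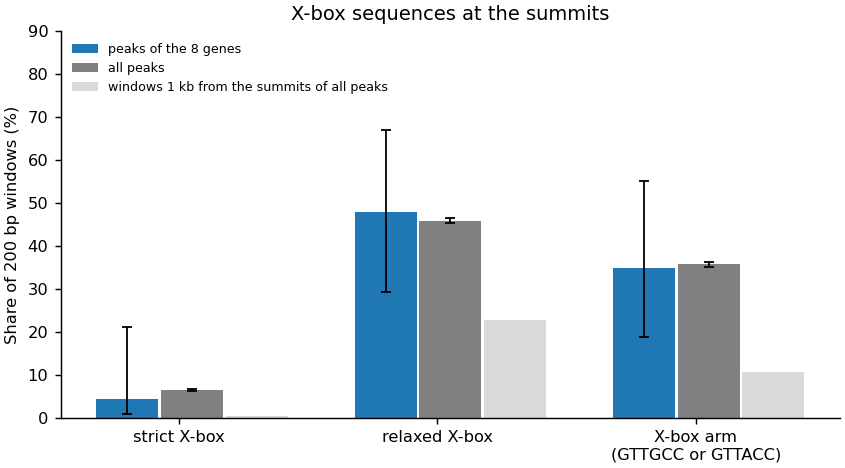
Share of 200 bp windows (y axis, %) with a strict X-box, a relaxed X-box or an X-box arm (x axis) at the 23 summits of the 8 genes, at all 23308 summits and 1 kb from the latter, with 95% Wilson intervals for counting error on the first 2. The blue and dark gray bars are close for each pattern, with 47.8% and 45.9% for the relaxed X-box.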

How the data were processed

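Anti-HA ChIP-seq was performed on Min6b1 cells transfected with 3HA-Rfx6 and on control Min6b1 cells, with 1 library each and reads of 50 bases. According to the submitters' processing notes and the file header, CASAVA 1.8.2, Bowtie, mm9 and MACS 1.4.2 were used, with a p-value cutoff of 1e-05 and at most 1 read per position. The authors deposited, for each peak of the 3HA-Rfx6 library, a read count without normalization, an FDR in percent, a fold enrichment (the ratio of the peak to its modelled local background) and a score, the −log10 of the p-value multiplied by 10. Replicates were not pooled, since there were none.

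Here, summits (start plus summit minus 1) were placed on GENCODE M1 protein-coding genes (NCBIM37, the same build as mm9), and 0 of 23308 peaks ran past a chromosome end. The mitochondrial genes were left out, and for Glis3, which is annotated more than once, the longer entry was taken. Sequences were read from NCBIM37 and searched on both strands. Read counts have 95% exact Poisson intervals and shares 95% Wilson intervals, both for counting error only. No group test was run. The genes and lists were chosen with earlier results of these data known. The text names the 8 genes, the nearest genes to their summits, and from each comparison list the 2 genes with the most reads in a peak and genes without a summit, of which 1 is not reported here by name. Python 3.11.15, numpy 2.4.6, pandas 2.3.3, scipy 1.17.1, pysam 0.24.0 and matplotlib 3.10.9 were used. The X-box search and the gene windows were tested on simulated data.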

Additional observations from a re-analysis of the deposited data

How the results depend on the processing

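No paired analysis was possible because all values come from the peak list of a single library, and leaving out a replicate was likewise not possible. The number of factor genes with a summit was 7 with a 100 kb distance (76.7% of all protein-coding genes), with distances taken from starts only (63.6%) and with each summit given to the gene with the nearest start (42.0%). It was 6 with a 20 kb distance (55.2%), with the better-scoring 50% of peaks (51.1%) and with a fold enrichment of at least 10 (45.6%). It fell to 4 when the summit had to lie in the gene (31.3%), and to 0 with an FDR of at most 1%, a setting that also left 0 of the 23 summits and only 0.125% of all protein-coding genes with a peak. The FDR setting did not select stronger peaks. Among the 23, the FDR was lowest (1.81%) at the lowest score (53.7) and highest (7.53%) at the highest score (1798). The 23 summits became 10 with a 20 kb distance, 40 with 100 kb, 6 in the genes themselves, 13 with the nearest-start rule and 14 with a fold enrichment of at least 10. The 6 genes with a summit within 10 kb of a start became 3 with a fold enrichment of at least 10 (Nkx2-2, Pax6 and Insm1), where 18.6% of all genes had one. They became 4 with the better-scoring 50% of peaks (23.1% of all genes) and 5 within 5 kb (31.1%). The number stayed at 6 within 20 kb (47.3%) and with the most upstream start only (35.7%). In place of the 47.8% of summits with a relaxed X-box, 4.35% had a strict X-box within 100 bp of the summit (6.42% of all peaks), 4.35% had one anywhere in the peak (8.87% of all peaks), and 21.7% had GTTGCNA (25.5% of all peaks). The last 2 searches were chosen after seeing the data, as was a median over summits nearest to the factor gene, which was 95 reads for the highest peak in place of 226. The reads of each gene's highest peak stayed inside the counting interval of the reported value in 33 of 43 recalculations. The 10 that did not came from the 20 kb and 100 kb distances, the restriction to the gene itself or the nearest-start rule, and no recalculation was possible where a setting left a gene without a summit. The score and fold settings mostly remove weaker peaks, so a highest peak tends to stay as it was or the gene drops out. The setting with distances from starts only kept all 23 summits, and the 100 kb distance could only add peaks. The unchanged values under all of these settings, which are part of the 33, therefore say little about stability. With 1 library, the spread between repeats of the experiment is unknown, and regions under the cutoff are not listed.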
